A study of Arabidopsis thaliana with 4 samples.

Results

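The 4 genes described here belong to early wound and calcium signalling and were followed in leaf discs of Arabidopsis thaliana. They are the calmodulin-like genes CML37, CML38 and CML41 and the zinc finger gene STZ. They were chosen by their probe set annotation, with earlier results of these data known, and are 4 of the 22810 probe sets on the array. Their probe sets are 249197_at for CML37 (AT5G42380), 259879_at for CML38 (AT1G76650), 252136_at for CML41 (AT3G50770) and 261648_at for STZ (AT1G27730). The DTT group was discs of wild-type Col-0 incubated for 1 h, in darkness, in an MES buffer that held 5 mM dithiothreitol (DTT), a small thiol that enters cells and reduces disulfide bonds. The control group was discs incubated likewise for 1 h without DTT. All discs had been cut from full-grown source leaves of non-flowering plants at the end of the night. Each group had 2 Affymetrix ATH1 arrays of biological replicates, named here DTT 1, DTT 2, control 1 and control 2, and so few arrays limit the precision of all that follows. The comparison asks how a shift in the redox state of the cells changes transcript levels. Intact leaves were not analysed here, so the level before cutting, and the part of any level that cutting or buffer set, cannot be told apart from the level of the discs.

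A wound opens calcium channels in plant cells, and the calcium that enters the cytosol is read by EF-hand proteins, of which calmodulin is the best known. Calmodulin-like proteins are a plant family of such sensors that bind calcium and pass the signal to other proteins. Many of their genes, like those of stress-related zinc finger repressors, are transcribed within minutes of touch, wounding or elicitor treatment. CML37 is a calcium sensor that promotes jasmonate defence against chewing insects. CML38 is found in cytosolic RNA granules and is strongly induced when oxygen is short. CML41 lies at plasmodesmata, where it promotes callose deposition and closure during immunity. STZ, also called ZAT10, is a C2H2 zinc finger protein that represses transcription through an EAR motif and is induced by salt, cold, excess light and wounding.

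The arrays had been scaled to one level, with a trimmed mean signal of 100 on each and a median between 25.4 and 32.8. They differed by replicate number. The hybridization controls are bacterial and phage transcripts meant to be spiked in equal amounts into all labelled samples, and the amounts added were not checked here. On the scaled signals they had a median ratio of 1.69 for DTT 1 over DTT 2 and 1.88 for control 1 over control 2, over 18 probe sets. The same ratio was 0.969 for DTT 1 over control 1 and 1.06 for DTT 2 over control 2. For the 4 genes, each change is therefore also given within a replicate number and from a fit with replicate number as a block. Rubisco activase (RCA), abundant in leaf mesophyll, had signals of 3808.7 and 2999.4 on the DTT arrays and 4077.4 and 2751.6 on the control arrays. It was the only gene of the mesophyll marker list to which the platform annotation gave a probe set of its own. That annotation lists no gene for 8730 of the 22746 probe sets. A listed gene not counted as measured here may therefore still have a probe set on the array. The guard cell gene FMA had 26 and 31.6 on the DTT arrays and 31.4 and 23.8 on the control arrays. FMA was the only 1 of 6 listed guard cell genes with a probe set of its own, so it does not stand for that list. Listed phloem and epidermis markers were not analysed here.

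All 4 genes had a higher signal after DTT in both replicate numbers, by 1.17-fold to 1.70-fold, and none passed the test. Of all 13648 probe sets tested, 24.3% were higher in both replicate numbers. In limma's fit without a block, 0 of the 4 genes were called at an adjusted p under 0.05, as were 0% of all probe sets tested (0 of 13648, of which 95, or 0.696%, had an unadjusted p under 0.05). With the replicate block, limma called 0.923% of all probe sets (126 of 13648) and again 0 of the 4 genes. At an unadjusted p under 0.05 that fit held 2 of the 4, CML37 and STZ, against 8% of all probe sets (1092 of 13648). Both DTT arrays lay above both control arrays for 3 of the 4 genes, CML37, CML38 and STZ, and for 8.01% of all probe sets, and below them for 0 of the 4 and 9.81% of all probe sets. The median log2 change was 0.49 over the 4 genes and -0.01 over all probe sets tested. In whole discs, a change in transcript per cell and a change in the share of cells that hold it cannot be told apart. An exact permutation test of 2 arrays against 2 cannot go below a two-sided p of 0.333, the value it gave for these 3 genes.

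**Figure D1:**
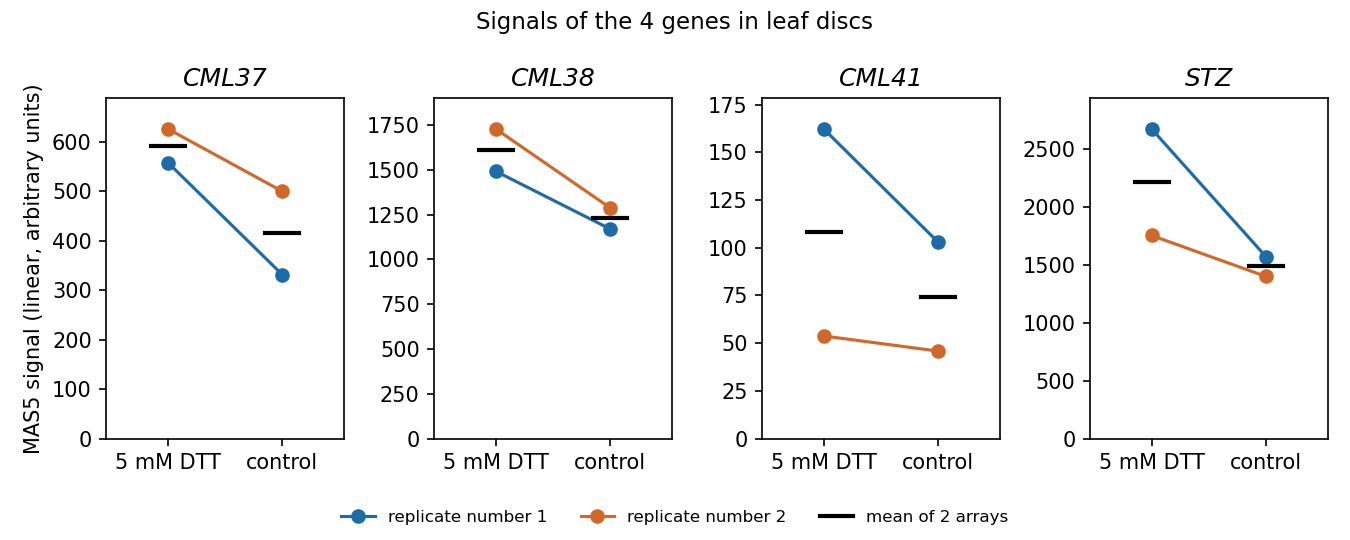
MAS5 signal (linear, from 0) of each gene on the 4 arrays, DTT left and control right, with arrays of the same replicate number joined and the mean of each group as a bar. The DTT arrays lie above the control arrays for CML37, CML38 and STZ, while the CML41 signals separate by replicate number.

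The signal of CML37 was 557.2 on DTT 1 and 625.3 on DTT 2, while it was 331.4 on control 1 and 499.5 on control 2. The groups did not overlap, and control 1 was the lowest of the 4 arrays. The mean was 591 ± 48.2 in DTT discs and 415 ± 119 in control discs (SD, n = 2 each). The change was 1.68-fold in replicate number 1 and 1.25-fold in replicate number 2, which gave a mean of 1.45-fold (log2 0.54, SE 0.35, limma adjusted p = 0.9999). Its 95% interval without the block ran from -0.33 to 1.40 on the log2 scale. With the replicate block it ran from 0.09 to 0.99, with a limma adjusted p of 0.447. That fit rests on 1 residual degree of freedom per probe set.

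The signal of CML37 differed between arrays of the same treatment by a log2 difference of 0.17 for the DTT arrays and 0.59 for the control arrays, number 2 being higher in both. The change with DTT, at log2 0.75 in replicate number 1 and 0.32 in number 2, was thus of the same order as the difference between the control arrays. Without control 1 the log2 change was 0.24, and without control 2 it was 0.83.

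The signal of CML38 was 1491.4 on DTT 1 and 1727.6 on DTT 2, while it was 1170 on control 1 and 1287.8 on control 2. The DTT arrays were both higher, and the groups did not overlap. The mean was 1610 ± 167 in DTT discs and 1229 ± 83.3 in control discs (SD, n = 2 each). This gene had the most even change of the 4, at 1.27-fold in replicate number 1 and 1.34-fold in number 2, and the smallest, with a mean of 1.31-fold (log2 0.39, SE 0.27, limma adjusted p = 0.9999). Arrays of the same treatment differed by log2 0.21 for DTT and 0.14 for control, less than the change with DTT in either replicate number. The 95% interval was -0.28 to 1.06 without the block and -0.002 to 0.78 with it (limma adjusted p = 0.628 with the block).

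The gene next to CML38 in the RefSeq order of protein-coding genes (TAIR10.1) is AT1G76640, which RefSeq also annotates as calmodulin-like 39. Its signals were 0.5 and 6 on the DTT arrays and 0.8 on each control array, below the filter on low signals (16.9), so it was not tested. Of 13 genes listed for the core response to low oxygen, 1 was measured, AT3G10040, annotated as the attenuator HRA1. It had 14.6 and 8.2 on the DTT arrays and 13.3 and 4.6 on the control arrays, also below the filter.

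The signal of CML41 was 162.2 on DTT 1 and 53.8 on DTT 2, while it was 103 on control 1 and 45.9 on control 2. The groups overlapped, since DTT 2 lay below control 1. The mean was 108 ± 76.7 in DTT discs and 74.5 ± 40.4 in control discs (SD, n = 2 each). The signal was 3.01-fold higher on DTT 1 than on DTT 2 and 2.24-fold higher on control 1 than on control 2, which exceeds its change with DTT of 1.57-fold in replicate number 1 and 1.17-fold in number 2. The mean change was 1.36-fold (log2 0.44, SE 0.67, limma adjusted p = 0.9999), with a 95% interval from -1.23 to 2.12.

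With the replicate block, the interval of CML41 narrowed to -0.06 to 0.94 (limma adjusted p = 0.729). Its direction depended on single arrays. Without DTT 1 the log2 change was -0.35 and without control 2 it was -0.14, while it was 1.24 without DTT 2 and 1.03 without control 1. A fit with 3 arrays holds the replicate numbers unequally in the groups.

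The signal of STZ was 2673.4 on DTT 1 and 1754.1 on DTT 2, while it was 1572.3 on control 1 and 1400.7 on control 2. Both DTT arrays were higher than both control arrays, with DTT 1 well above the other 3. The mean was 2214 ± 650 in DTT discs and 1487 ± 121 in control discs (SD, n = 2 each). The change was 1.70-fold in replicate number 1 and 1.25-fold in number 2, with a mean of 1.46-fold (log2 0.55, SE 0.31, limma adjusted p = 0.9999) and a 95% interval from -0.23 to 1.32. With the replicate block the interval was 0.16 to 0.93 and the unadjusted p was 0.00736, but the limma adjusted p was 0.268. The DTT arrays differed by log2 0.61, more than the change in replicate number 2. Without DTT 1 the log2 change was 0.24, and without DTT 2 it was 0.85.

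**Figure D2:**
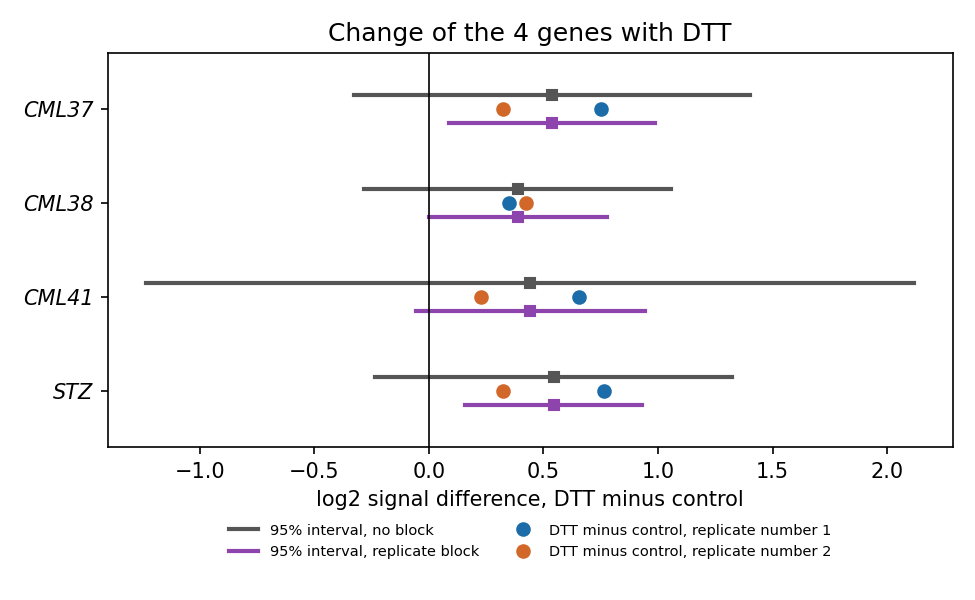
Log2 signal difference, DTT minus control, for each gene, with a point per replicate number, squares at the mean and bars for limma's 95% interval without and with the replicate block. All points lie above 0, the intervals without the block include 0 for all 4 genes, and with the block they lie above 0 for CML37 and STZ.

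The changes were larger in replicate number 1 than in number 2 for 3 of the 4 genes, by a log2 difference of 0.43 for CML37, 0.43 for CML41 and 0.44 for STZ. CML38 differed the other way, by 0.07. Ranked against the changes of all tested probe sets in replicate number 1, CML37 stood at percentile 97.3, CML41 at 96.1, STZ at 97.5 and CML38 at 85.8. In replicate number 2 the percentiles were 81.7 for CML37, 73.1 for CML41, 81.8 for STZ and 88.3 for CML38. No gene of the 4 lay in the top 10% of changes in both replicate numbers. The mean changes stood at percentile 97.6 for CML37, 95.8 for CML41, 94.1 for CML38 and 97.7 for STZ.

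**Figure D3:**
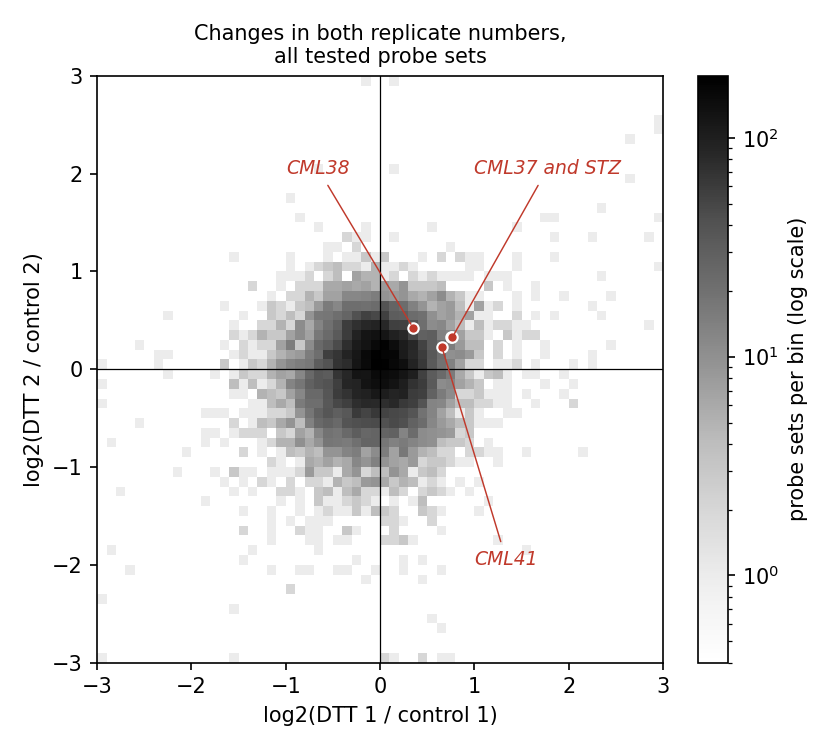
Log2 change with DTT in replicate number 1 (horizontal) and number 2 (vertical) for the 13648 tested probe sets, as counts per bin on a log grey scale, with values beyond 3 placed at the edge. CML37, CML38, CML41 and STZ (red) lie in the upper right quadrant, inside the cloud of probe sets.

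Signals in the cut discs were high for CML38 and STZ on all arrays. The signal of STZ exceeded that of 99.4% of the 22746 probe sets on DTT 1, 98.6% on DTT 2, 98.6% on control 1 and 98.2% on control 2. That of CML38 exceeded 98.4% and 98.6% on the DTT arrays and 97.9% on each control array. CML37 exceeded 94.4% and 94.8% on the DTT arrays and 90.6% and 93.5% on the control arrays, and CML41 81.2% and 64.3% on the DTT arrays and 73.7% and 60.7% on the control arrays. A probe set's signal depends on its probes as well as on the transcript, so these percentiles rank signals, not transcript levels. The high signals of CML38, STZ and CML37 were present without DTT.

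The patterns of the 4 genes over the 4 arrays were compared by the Euclidean distance between log2 signals centred on each gene's mean. CML37 and CML38 were nearest to each other, at a distance of 0.36, yet 148 of 7372 probe sets with a single gene lay nearer to CML37 than CML38 did, and 648 lay nearer to CML38 than CML37 did. STZ lay at 0.64 from CML38 and 0.77 from CML37. CML41 stood apart, at 0.997 from STZ, 1.58 from CML38 and 1.76 from CML37. With 4 arrays, many probe sets come close to any pattern, and the genes named next are a description only.

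The nearest genes to CML37 were AT2G37470 (distance 0.05), AT5G44520 (0.08) and AR781 (0.08). The nearest to CML38 were AT4G15420 (0.05), AT3G49810 (0.07) and GLX2-1 (0.07). The nearest to STZ were AT4G26060 (0.02), SPP (AT2G03120, 0.05), a signal peptide peptidase, and AT2G31130 (0.10). The nearest to CML41 were ALDH2C4 (0.10), an aldehyde dehydrogenase of ferulate and sinapate synthesis, AT3G50340 (0.17) and SAL2 (0.18). The CML41 neighbours shared its high signals in replicate number 1. ALDH2C4 had signals of 400.8 on DTT 1 and 147 on DTT 2, and of 267.4 on control 1 and 120.1 on control 2.

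Of 21 genes listed for calmodulins and calmodulin-like proteins, 8 had a probe set of their own in the annotation, and 7 of these were tested. Limma called 0 of the 7 with or without the replicate block (0.923% of all probe sets with it), and 1, CML37, had an unadjusted p under 0.05 with it (8% of all probe sets). Their median log2 change was 0.39, and 3, CML37, CML38 and CML30, were higher on both DTT arrays than on either control array (8.01% of all probe sets). These 7 include CML37, CML38 and CML41, and over the other 4 the median log2 change was 0.07, with 1 of the 4, CML30, above on both DTT arrays. CML30, a family member of mitochondria, had signals of 100.8 and 74.2 on the DTT arrays, against 72.4 and 58.9 on the control arrays (log2 0.48 and 0.33 in the replicate numbers, limma adjusted p = 0.776 with the block). Its groups did not overlap, though by a narrow margin.

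The other tested family members changed in opposite directions in the replicate numbers. CML42, which restrains jasmonate defence, had signals of 242.3 and 129.3 on the DTT arrays, against 218.1 and 158.2 on the control arrays, with log2 changes of 0.15 and -0.29. CML23, linked to nitric oxide level and flowering time, had 15.5 and 43.7 on the DTT arrays and 16.9 and 31.6 on the control arrays, with log2 changes of -0.12 and 0.47. CML43, a gene of the hypersensitive response, had 27.1 and 16.2 on the DTT arrays and 30.4 and 15.1 on the control arrays, with -0.17 and 0.10. The groups of these 3 genes overlapped, and the limma adjusted p with the block was 0.987 or more.

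STZ was the only 1 of 9 genes listed for its zinc finger group to which the annotation gave a probe set of its own. Early wound and elicitor genes had 5 of 40 listed members measured in this sense, all tested, so the measured genes do not stand for either group. Limma called 0 of the 5 with or without the block (0.923% of all probe sets with it), and 2 had an unadjusted p under 0.05 with it (8% of all probe sets). The median log2 change was 0.41, against -0.01 over all probe sets tested. It was uneven, at 0.66 in replicate number 1 and 0.05 in number 2, against -0.03 and 0.01 over all probe sets tested. WRKY53, a transcription factor of senescence and defence, had signals of 253.5 and 151.5 on the DTT arrays, against 150.5 and 89.2 on the control arrays. Its log2 changes of 0.75 and 0.76 were nearly equal in the replicate numbers (limma adjusted p = 0.167 with the block). PUB24, a U-box ubiquitin ligase that dampens immune responses, had 188.8 and 152.6 on the DTT arrays, against 119.7 and 91.7 on the control arrays, with log2 changes of 0.66 and 0.73 (limma adjusted p = 0.251 with the block).

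Both genes thus had changes as large in replicate number 2 as in number 1, which CML37, CML41 and STZ did not. The other ligase genes of this group, named after their values were seen, had log2 changes of 0.77 and 0.05 for PUB23 and 0.17 and -0.04 for PUB22 (limma adjusted p = 0.690 and 0.996 with the block). WRKY6, named likewise, had 0.23 and -0.72 (limma adjusted p = 0.955 with the block). Of 11 jasmonate genes listed, 1 was measured, the defensin gene PDF1.2. Its signals of 0.9 and 361.3 on the DTT arrays and 5.1 and 311.3 on the control arrays separated by replicate number. The log2 changes of PDF1.2 were opposite, at -2.50 and 0.21 in replicate numbers 1 and 2. With the block its limma unadjusted p was 0.00878 and its adjusted p 0.294. Both of its signals in replicate number 1 lay below the filter level of 16.9. Of 5 loci listed as stable references, 3 were measured. These loci, AT4G26410, AT4G34270 and AT2G28390, had mean log2 changes of -0.07, 0.06 and -0.23. In replicate numbers 1 and 2 the changes were -0.07 and -0.07 for AT4G26410, -0.07 and 0.18 for AT4G34270, and -0.11 and -0.35 for AT2G28390 (limma adjusted p of 0.953 or more with the block). The groups of AT2G28390 did not overlap, with 96.2 and 78.6 on the DTT arrays, both below the 104.1 and 100.5 on the control arrays.

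**Figure D4:**
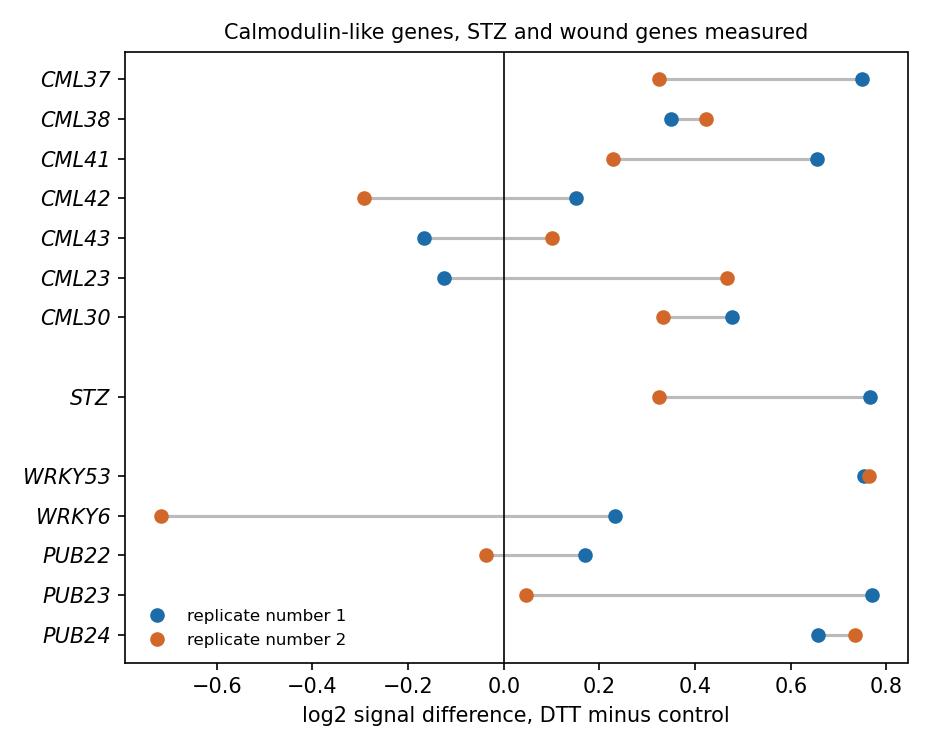
Log2 signal difference, DTT minus control, in replicate numbers 1 and 2 for the tested calmodulin-like genes, STZ and the early wound and elicitor genes. CML37, CML38, CML41, CML30, STZ, WRKY53, PUB23 and PUB24 have both points above 0, and CML42, CML43, CML23, WRKY6 and PUB22 have points on either side of it.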

How the data were processed

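Per the labels' protocols, total RNA was extracted with TRIzol and biotin-labelled, and it was hybridized to 4 ATH1 arrays. The authors deposited 1 linear intensity (signal) per probe set and array, which MAS5 computed according to the submitters' processing notes. Its version and settings were not given in the sources used here. The trimmed mean was 100 on all arrays, so a change of total mRNA cannot be seen.

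Titles gave the groups and replicate numbers. Signals of 0 were set to 0.1 before log2. Of 22746 probe sets without the 64 controls, 13648 with a mean log2 signal at or above the 40th percentile (4.08) entered limma's lmFit and eBayes, with a variance trend, in version 3.58.1 (R 4.3.3), adjusted by Benjamini-Hochberg over all of them. On simulated arrays, the fit without the block called none of the changes put in. Those arrays held the replicate difference seen in the data, with its noise, and fresh noise on top. Arrays of a group thus differed more than the real ones, which makes that outcome too severe for the fit without the block. The fit with the block called few of those near the size seen for the 4 genes, and its share of false calls was above the one aimed at. A gene that was not called may therefore still have changed. Python 3.11.15 drew the plots. Names came from the platform annotation and RefSeq; 13513 probe sets had 1 gene, 503 several and 8730 none listed.

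The members and lists were chosen with earlier results of these data known. The naming rule took the 4 members, any calmodulin-like gene, the 3 nearest patterns per member and, per other list, members called with the block or else the 2 of smallest unadjusted p. No label states what an equal number shares. Across tested probe sets, the difference between numbers in DTT correlated at 0.746 with that in control, and the hybridization controls differed by number, so the block is shown beside the fit without it.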

Additional observations from a re-analysis of the deposited data

How the results depend on the processing

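The settings tried were one median per array, quantile normalization, log2(signal + 16), log2(signal + 64), no filter, a stricter filter (60th percentile), robust eBayes, no variance trend, the replicate block, each of these with the block, and leaving out each array. None of the 4 genes was called under any of them. With all 4 arrays the log2 change ranged from 0.47 to 0.56 for CML37, 0.33 to 0.41 for CML38, 0.27 to 0.47 for CML41 and 0.47 to 0.57 for STZ. The lowest adjusted p with the replicate block was 0.319 for CML37, 0.552 for CML38, 0.659 for CML41 and 0.170 for STZ. The highest was 0.860, 0.912, 0.912 and 0.905 in the same order. Without single arrays the log2 change ranged from 0.24 to 0.83 for CML37, 0.28 to 0.49 for CML38, -0.35 to 1.24 for CML41 and 0.24 to 0.85 for STZ. CML41 turned direction without control 2 (-0.14) and without DTT 1 (-0.35), and such fits mix the difference between replicate numbers with that of DTT. The count of called probe sets was 0 without a block and 0 to 3 without single arrays. It was 126 with the replicate block, and joined with the block it was 71 with quantile normalization, 92 with one median per array, 58 with log2(signal + 16), 135 with log2(signal + 64), 3 with no filter, 176 with the stricter filter, 35 without the trend and 105 with robust eBayes; the cause was not tested. CML41 had the lowest control signals of the 4 relative to the filter level, at 4.40 times it.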

Other observations

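Several glutamate receptor-like channels carry wound-induced electrical and calcium signals between leaves. Their genes were the only ones of a calcium signalling list of 137 to which the annotation gave probe sets of their own, so they do not stand for that list. Of 8 measured, 7 were tested, and limma called 0 with or without the replicate block (0% of all probe sets without it and 0.923% with it). With the block 1 of the 7, GLR1.4, had an unadjusted p under 0.05 (8% of all probe sets). Both DTT arrays lay below both control arrays for 3 of the 7, GLR1.4, GLR2.7 and GLR3.3, against 9.81% of all probe sets tested, and the median log2 change was -0.37. GLR2.8, named after the values were seen, went the other way, with 71.7 and 61.8 on the DTT arrays, both above the 59.4 and 50.5 on the control arrays (log2 0.27 and 0.29 in replicate numbers 1 and 2, limma adjusted p = 0.931 with the block). GLR1.4 had signals of 34.9 and 30.5 on the DTT arrays, against 54.7 and 42.6 on the control arrays (log2 -0.65 and -0.48 in replicate numbers 1 and 2, limma adjusted p = 0.606 with the block, unadjusted p = 0.0454). GLR2.7 had 117.7 and 122.5 on the DTT arrays, against 158 and 157.4 on the control arrays (log2 -0.42 and -0.36, limma adjusted p = 0.777 with the block). GLR3.3, named for its role in wound signalling after the values were seen, had 39.8 and 45.8 on the DTT arrays, against 60.5 and 50.3 on the control arrays (log2 -0.60 and -0.14, limma adjusted p = 0.866 with the block). GLR3.6, named for the same reason, had 17 and 17.7 on the DTT arrays and 19.1 and 16.6 on the control arrays, close to the filter level, and its groups overlapped (log2 -0.17 and 0.09).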
